A study of Mus musculus with 2 samples.

Results

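The 10 genes described here encode NFAT transcription factors and the calcium and calcineurin machinery that controls them. They were taken by gene symbol from the deposited count table, where each symbol stood on 1 row. They are 10 of 22036 rows with an Ensembl gene identifier and 10 of 10597 genes with a mean level of 1 CPM or more over both libraries, so all of them passed that filter. CPM is the count relative to the scaled total of its library. The set holds 4 NFAT genes (Nfatc1, Nfatc2, Nfatc3 and Nfat5), the calcineurin catalytic subunit genes Ppp3ca and Ppp3cb, the calcineurin inhibitor gene Rcan1, the calcium sensor genes Stim1 and Stim2, and the calcium channel gene Orai1.

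The samples were 2 mRNA sequencing libraries from cultures of mouse CD4+ T cells, in a series whose title concerns Foxo1 and TGFβ1 in Th17 fate. The cells came from spleen and lymph nodes. The donors were wild-type mice, whose strain and age the labels do not state. The cells were lysed 24 h after plating on bound anti-CD3 (10 μg/mL) and anti-CD28 (5 μg/mL). The culture labelled pathogenic Th17, called pTh17 here as in its label, held Activin-A at 20 ng/mL together with IL-6 at 20 ng/mL. The culture labelled non-pathogenic Th17, or npTh17, held recombinant human TGFβ1 at 2 ng/mL together with IL-6 at 20 ng/mL. Antibodies against IFNγ and IL-4 were in both cultures, and both cultures were stimulated through the T cell receptor, so there is no resting library against which NFAT induction could be read. Each condition had 1 library, with no replicate, so no difference below was tested and no p-value was computed. Ranges in brackets are 95% intervals that cover counting error only.

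The pTh17 library held 30877656 counts on named genes and the npTh17 library 33470161. Cd4, the co-receptor gene of helper T cells, stood at 223 CPM in pTh17 and 230 CPM in npTh17. Of 5 T cell marker genes at 1 CPM or more, 4 were lower in pTh17 and 1 higher. Their median log2 ratio, pTh17 over npTh17, was −0.24. The values were −0.046 for Cd4, −0.59 for Cd3e, −0.45 for Cd3g, −0.24 for Lat and 0.27 for Cd3d. Of 24 marker genes of CD8 T cells, B cells, myeloid cells, dendritic cells, NK cells and red cells, 3 reached 1 CPM and 9 had no count in either library, among them Csf1r, Flt3 and Ncr1. Others had counts in a single library. The myeloid gene Itgam had 0 counts in pTh17 and 24 in npTh17, and the dendritic cell gene Itgax 0 in pTh17 and 20 in npTh17. The B cell gene Cd79b had 11 counts in pTh17 and 0 in npTh17. Together the 24 summed to 8.70 CPM in pTh17 and 10.4 CPM in npTh17. In cultured cells fewer cells with a transcript and less of it per cell cannot be told apart.

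NFAT proteins are held in the cytoplasm by phosphorylation. When the T cell receptor is engaged, phospholipase Cγ makes IP3, IP3 receptors empty the calcium store of the endoplasmic reticulum, STIM proteins sense the loss and open ORAI channels in the plasma membrane, and the calcium that enters activates calcineurin through calmodulin. Calcineurin strips phosphate from NFAT, which moves to the nucleus and switches on genes such as Il2. NFAT5 shares the DNA-binding fold but lacks the calcineurin-regulated part and is best known for the response to high salt. Since this control acts on proteins, transcript levels describe how much of each message was present, not how active the pathway was.

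Differences between the libraries were small for all 10 genes. None was 2-fold apart, where 4.20% of the 10597 measured genes were, and none was 1.5-fold apart, where 13.0% were. At 1.2-fold, a level added after the data were seen, 5 of 10 passed, against 40.0% of all measured genes. Of the 5, Nfat5 was higher in pTh17, and Nfatc2, Nfatc3, Stim2 and Ppp3ca were lower. The median log2 ratio of the 10 was −0.13, against −0.0045 over all measured genes, and 7 of 10 were below a ratio of 1, against 50.6% of all measured genes. The counting interval excluded a ratio of 1 for 7 of 10, against 66.9% of all measured genes. Every one of the 10 also lay within the central 90% of ratios of genes whose mean CPM was within 2-fold of its own.

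**Figure D1:**
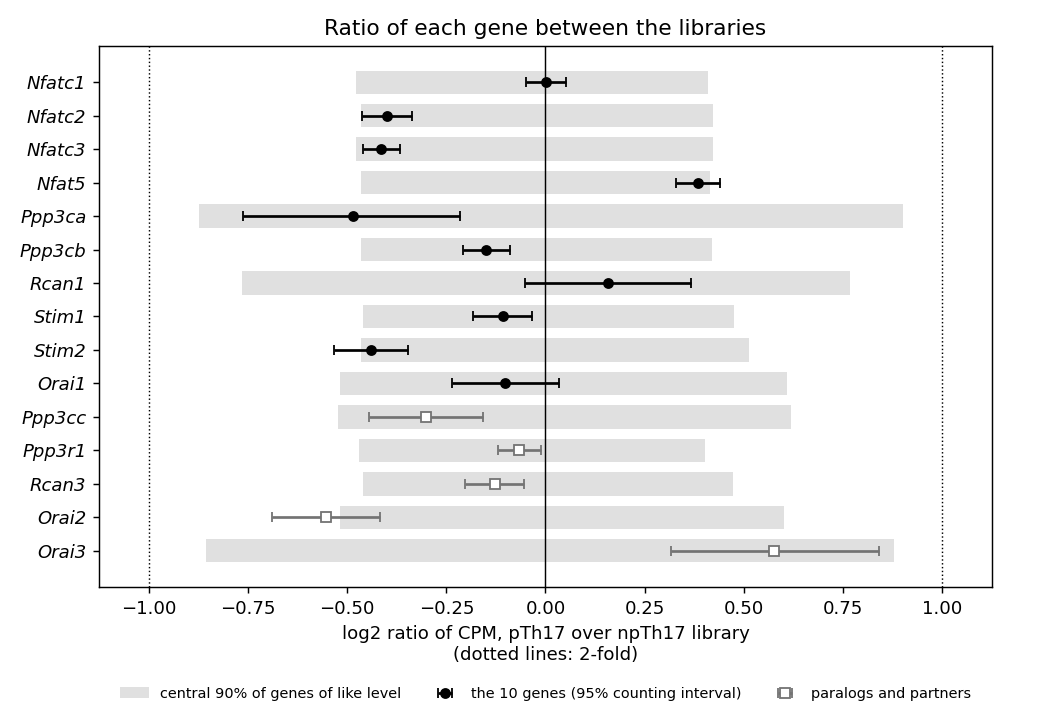
Log2 ratio of CPM, pathogenic over npTh17 library, for the 10 genes (filled circles) and 5 paralogs and partners (open squares), with 95% counting intervals; grey bars span the central 90% of ratios of genes with a mean CPM within 2-fold. All points lie inside the 2-fold lines, Nfat5 and Orai3 stand to the right, and Nfatc2, Nfatc3, Stim2, Ppp3ca and Orai2 stand farthest to the left.

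Nfatc1 encodes the NFAT member that T cells induce strongly on activation, through a promoter that NFAT itself drives. It had 5918 counts (191 CPM) in pTh17 and 6391 counts (191 CPM) in npTh17. The log2 ratio was 0.0011 (−0.050 to 0.052), so the interval leaves no room for a counting difference of 1.2-fold. The deposited values are per gene, so transcripts from the promoter that NFAT drives were not counted apart. The gene is ENSMUSG00000033016 on chromosome 18, from 80606205 to 80713071 in mm10.

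Nfatc2 and Nfatc3 encode the NFAT proteins that resting T cells already hold, and both were lower in pTh17 by a like amount. Nfatc2 (ENSMUSG00000027544, chromosome 2, 168476410 to 168601657) had 3518 counts, or 114 CPM, in pTh17 and 5016 counts, or 150 CPM, in npTh17. Its log2 ratio was −0.40 (−0.46 to −0.34). Nfatc3 (ENSMUSG00000031902, chromosome 8, 106058840 to 106130537) had 6197 counts, or 200 CPM, in pTh17 and 8920 counts, or 267 CPM, in npTh17. Its log2 ratio was −0.41 (−0.46 to −0.37), which is 1.33-fold lower in pTh17. Their intervals overlap each other and do not overlap that of Nfatc1. For Nfatc2, 11.2% of measured genes had a lower ratio, and for Nfatc3 10.7% did.

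Nfat5 went the other way. The gene (ENSMUSG00000003847, chromosome 8, 107293470 to 107379517) had 5797 counts, or 187 CPM, in pTh17 and 4798 counts, or 144 CPM, in npTh17. It was 1.31-fold higher in pTh17, with a log2 ratio of 0.38 (0.33 to 0.44), and 13.5% of measured genes had a higher ratio. Its central 90% range for genes of like level was −0.47 to 0.42. Nfat5 thus lay close to the upper edge of the spread that ordinary genes showed between these libraries. Others of the 10 lay near the lower edge of theirs. Stim2 was at −0.44 against −0.46, Nfatc2 at −0.40 against −0.46 and Nfatc3 at −0.41 against −0.48. Nfatc4, the family member outside the 10, had 0 counts in pTh17 and 2 in npTh17, both under the floor of 3 counts, which is 0.0970 CPM and 0.0898 CPM there.

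The NFAT genes lay on both sides of a ratio of 1, so their shares of the NFAT message differed between the libraries. Genes were compared per transcript length, in FPKM (fragments relative to transcript length and sequencing depth). The family summed to 98.7 FPKM in pTh17 and 110 FPKM in npTh17. Its summed counts gave a log2 ratio of −0.12 (−0.14 to −0.091). Counts are not divided by length, so this ratio is not that of the FPKM sums. Nfatc1 made up 37.2% of the summed FPKM in pTh17 and 33.4% in npTh17. Nfatc3 made up 30.0% in pTh17 and 36.3% in npTh17. The order of the leading genes thus differed, with Nfatc1 above Nfatc3 in pTh17 and Nfatc3 above Nfatc1 in npTh17.

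The ratio of Nfatc1 to Nfatc3 in FPKM was 1.24 (1.198 to 1.29) in pTh17 and 0.923 (0.893 to 0.953) in npTh17. Nfat5 made up 17.9% of the family in pTh17 and 12.6% in npTh17, and Nfatc2 14.9% in pTh17 and 17.7% in npTh17. Nfat5 stood above Nfatc2 in pTh17, at a ratio of 1.205 (1.16 to 1.26), and below it in npTh17, at 0.710 (0.683 to 0.739). None of these intervals reaches 1, and they cover counting error only.

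**Figure D2:**
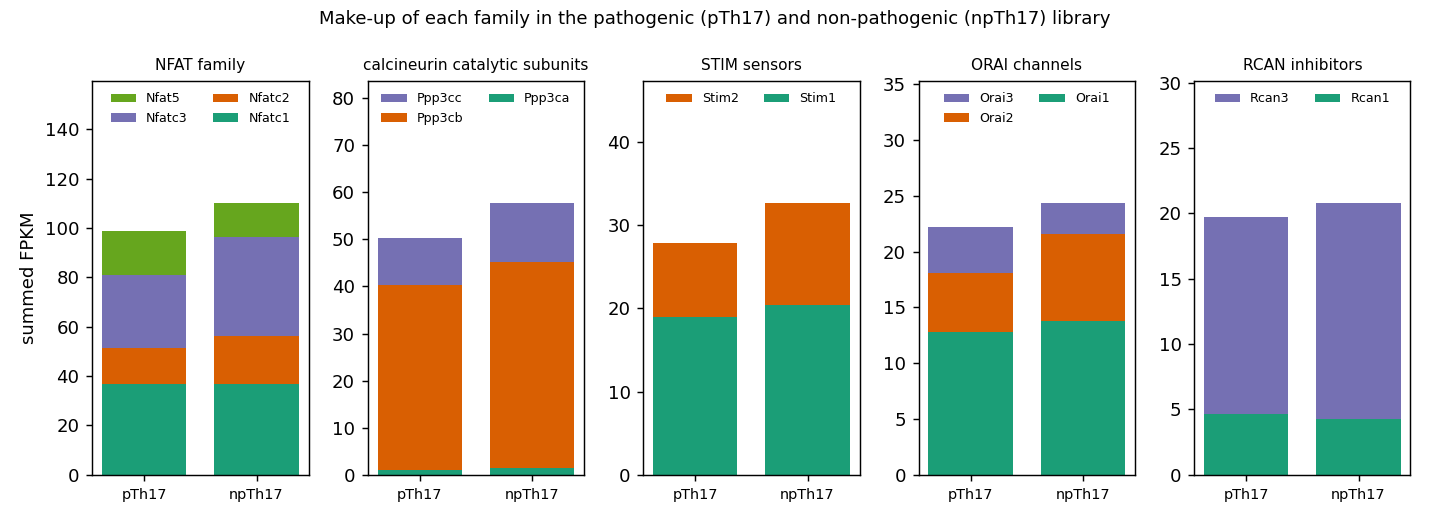
Summed FPKM of each gene family in the pathogenic (pTh17) and non-pathogenic (npTh17) library, split by gene; bars start at 0 and members under 1% of a family are not drawn. Nfatc1 keeps its height while Nfatc3 is lower and Nfat5 higher in pTh17, and Ppp3cb, Stim1, Orai1 and Rcan3 make up most of their families in both.

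Calcineurin is a phosphatase of a catalytic A subunit and a calcium-binding B subunit. Ppp3cb, which encodes the β form of the catalytic subunit, had 4088 counts (132 CPM) in pTh17 and 4898 counts (147 CPM) in npTh17, at a log2 ratio of −0.15 (−0.21 to −0.089). The gene is ENSMUSG00000021816 on chromosome 14, from 20499364 to 20546573. Ppp3ca, which encodes the α form (ENSMUSG00000028161, chromosome 3, 136670124 to 136937727), was much scarcer, with 186 counts (6.01 CPM) in pTh17 and 282 counts (8.44 CPM) in npTh17. Its log2 ratio was −0.49 (−0.76 to −0.22), the lowest of the 10 and the least precise. Genes as scarce as Ppp3ca spread widely here, with a central 90% range of −0.87 to 0.90, while the range around Ppp3cb was −0.46 to 0.42.

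The β form dominated the catalytic message in both cultures. Ppp3cb made up 77.9% of catalytic FPKM in pTh17 and 75.7% in npTh17, while Ppp3ca made up 2.20% in pTh17 and 2.70% in npTh17. The remainder was Ppp3cc, the γ form, with 697 counts in pTh17 and 928 in npTh17 and a log2 ratio of −0.30 (−0.44 to −0.16). Ppp3r1, which encodes the B subunit, was at 5266 counts in pTh17 and 5958 in npTh17, with a log2 ratio of −0.066 (−0.12 to −0.012). Its exons share 14.3% of their bases with Wdr92 on the same strand, so its reads can be assigned to either gene. Ppp3r2, the other B subunit gene, had no count in either library. All 4 measured subunit genes were thus lower in pTh17, by amounts of 1.05-fold to 1.40-fold, with a median log2 ratio of −0.22 against −0.0045 over all measured genes. With the trend on transcript length and GC content removed, Ppp3cb was at −0.055 and Ppp3r1 changed sign, to 0.028.

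Rcan1 encodes a protein that binds and inhibits calcineurin, and it is itself an NFAT target. It had 383 counts (12.4 CPM) in pTh17 and 371 counts (11.1 CPM) in npTh17. The log2 ratio of 0.16 (−0.052 to 0.37) did not differ from 0 beyond counting error, and 29.7% of measured genes had a higher ratio. Its paralog Rcan3 was more abundant per length, at 15.1 FPKM in pTh17 and 16.5 FPKM in npTh17, against 4.65 FPKM and 4.26 FPKM for Rcan1, and had a log2 ratio of −0.13 (−0.20 to −0.053). Rcan2 had no count in either library.

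Rcan1 (ENSMUSG00000022951, chromosome 16, 92391953 to 92470867) has 2 annotated RefSeq starts, 66091 bases apart on the minus strand. The shorter transcript, from the downstream start, is the one known to be induced by calcineurin and NFAT. The deposited values are per gene and do not separate the transcripts. The 250 bases before each start, and those before the start of Il2, the classic NFAT target, are shown. They were searched for the core that NFAT proteins bind. They are from RefSeq on GRCm38.p6 (the assembly called mm10), read on the minus strand, which is the coding strand of both genes. Capitals mark GGAAA, the NFAT core, or TTTCC, the same core on the other strand. GGAAA also contains the shorter core of ETS factors.
Rcan1, upstream start, chr16:92466170-92466419: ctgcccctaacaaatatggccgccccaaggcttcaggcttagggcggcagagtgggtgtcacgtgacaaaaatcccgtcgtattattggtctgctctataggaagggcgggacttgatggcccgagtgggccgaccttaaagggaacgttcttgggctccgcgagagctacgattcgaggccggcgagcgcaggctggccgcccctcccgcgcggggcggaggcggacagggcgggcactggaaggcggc
Rcan1, downstream start, chr16:92400079-92400328: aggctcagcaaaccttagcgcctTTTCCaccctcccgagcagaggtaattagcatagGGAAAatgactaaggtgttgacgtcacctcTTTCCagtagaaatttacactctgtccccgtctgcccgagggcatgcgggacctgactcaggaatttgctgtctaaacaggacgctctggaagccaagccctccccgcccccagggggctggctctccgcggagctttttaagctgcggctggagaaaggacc
Il2, chr3:37125955-37126204: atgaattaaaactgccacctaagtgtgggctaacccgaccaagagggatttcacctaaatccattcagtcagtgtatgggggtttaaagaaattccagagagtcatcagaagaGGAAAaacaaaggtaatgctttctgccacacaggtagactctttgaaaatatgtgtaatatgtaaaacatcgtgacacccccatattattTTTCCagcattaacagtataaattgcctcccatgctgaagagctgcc

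The window before the upstream Rcan1 start held no match. The window before the downstream start held 3, which begin 227, 193 and 163 bases before it. The Il2 window held 2, which begin 137 and 47 bases before its start. On both strands, 55.6% of 32851 RefSeq windows of this length held at least 1 match, 21.4% at least 2 and 6.39% at least 3. Having at least 1 match is thus common. No window of Nfatc1 or Ppp3ca was searched. For the other 8 of the 10 genes, 11 windows were searched, of which 6 held a match. These were the pair before Nfatc2, with 3 and 1 matches, 1 of the pair before Nfatc3, with 1, and those of Nfat5 with 2, Ppp3cb with 3 and Rcan1. The windows of Orai1, Stim1 and Stim2 held none. A match is a description of letters and not a measured binding site.

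STIM proteins sit in the membrane of the endoplasmic reticulum. Stim1, the main sensor of store depletion in T cells (ENSMUSG00000030987, chromosome 7, 102267806 to 102437319), had 2721 counts (88.0 CPM) in pTh17 and 3168 counts (94.8 CPM) in npTh17. Its log2 ratio was −0.11 (−0.18 to −0.033). Stim2, which responds to smaller falls of stored calcium (ENSMUSG00000039156, chromosome 5, 53998499 to 54121057), had 1547 counts (50.0 CPM) in pTh17 and 2268 counts (67.9 CPM) in npTh17. Its log2 ratio was −0.44 (−0.53 to −0.35), or 1.36-fold lower in pTh17, and 9.65% of measured genes had a lower ratio. The intervals of the 2 sensors do not overlap. Stim1 was accordingly 2.12 times Stim2 in FPKM in pTh17 (1.99 to 2.26) and 1.67 times in npTh17 (1.58 to 1.76).

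Orai1 encodes the pore of the store-operated channel. The gene (ENSMUSG00000049686, chromosome 5, 123015074 to 123030456) had 848 counts (27.4 CPM) in pTh17 and 983 counts (29.4 CPM) in npTh17. Its log2 ratio of −0.10 (−0.24 to 0.033) did not differ from 0 beyond counting error. With the length and GC trend removed it was −0.26, outside that interval. The paralogs outside the 10 differed more than Orai1 and in opposite directions. Orai2 had 723 counts in pTh17 and 1146 in npTh17, at a log2 ratio of −0.55 (−0.69 to −0.42). Orai3 had 290 in pTh17 and 210 in npTh17, at 0.58 (0.32 to 0.84). Orai1 made up 57.8% of ORAI FPKM in pTh17 and 56.7% in npTh17. Orai2 made up 23.7% in pTh17 and 32.1% in npTh17, and Orai3 18.5% in pTh17 and 11.2% in npTh17.

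Ranked by FPKM, the same genes led and closed the order in both libraries. Ppp3cb was highest, at 39.2 FPKM in pTh17 and 43.7 FPKM in npTh17, and Ppp3ca lowest, at 1.11 FPKM in pTh17 and 1.56 FPKM in npTh17. In the pTh17 library Ppp3cb was followed by Nfatc1 at 36.7, Nfatc3 at 29.6, Stim1 at 18.9, Nfat5 at 17.7, Nfatc2 at 14.7, Orai1 at 12.8, Stim2 at 8.91 and Rcan1 at 4.65 FPKM. No neighbours in that order had overlapping counting intervals. In the npTh17 library Ppp3cb was followed by Nfatc3 at 39.9, Nfatc1 at 36.8, Stim1 at 20.4, Nfatc2 at 19.5, Nfat5 at 13.8, Orai1 at 13.8, Stim2 at 12.2 and Rcan1 at 4.26 FPKM. There Stim1 and Nfatc2 were not separated by counting, nor were Nfat5 and Orai1. The median measured gene stood at 11.3 FPKM in each library, so Rcan1 and Ppp3ca were below the typical expressed gene in both and Stim2 was below it in pTh17.

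**Figure D3:**
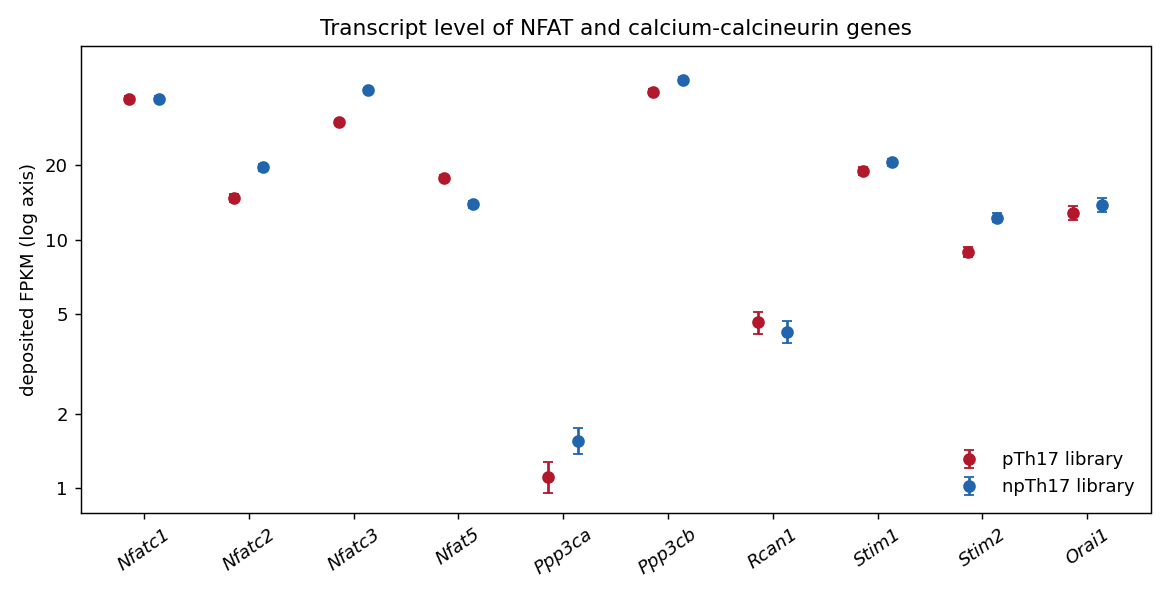
Deposited FPKM of each of the 10 genes on a log axis, in pTh17 (red, left of each pair) and the npTh17 library (blue, right), with 95% counting intervals. Levels span 1.11 to 43.7 FPKM, and that range is far wider than the gap between the libraries at any of the genes.

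The wider pathway was described with 13 lists of 120 genes, of which 99 were measured. Of these, 44 were above a ratio of 1 and 55 below, or 55.6% below, against 50.6% of all measured genes. At least 2-fold apart were 4.04% of the 99, against 4.20% of all measured genes, and 11.1% were 1.5-fold apart, against 13.0%. Genes of store-operated entry were mostly lower in pTh17, with 7 of 8 measured genes below 1, a median log2 ratio of −0.18, and Orai3 as the exception. Cracr2a, a calcium sensor that binds ORAI1 and STIM1, was at −0.36 (−0.52 to −0.20).

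Upstream of the store, genes went both ways. Plcg1, which encodes the phospholipase that makes IP3 in T cells, had 5728 counts in pTh17 and 9827 in npTh17, at a log2 ratio of −0.67 (−0.71 to −0.62). Of the IP3 receptor genes, Itpr1 was higher in pTh17, at 0.49 (0.39 to 0.60), and Itpr3 lower, at −0.51 (−0.58 to −0.44). The list of 11 had a median of −0.17. It also holds Lat, a T cell marker, and the CD3 genes of the T cell receptor complex went both ways. Cd3e had 5169 counts in pTh17 and 8423 in npTh17, a log2 ratio of −0.59 (−0.64 to −0.54), and Cd3g was at −0.45 (−0.53 to −0.38). Cd3d was higher in pTh17, with 3321 counts in pTh17 and 2970 in npTh17, at 0.27 (0.20 to 0.35). Their part in the calcium genes was not tested.

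Among calcium pumps and exchangers, the median of 5 measured genes was −0.14. Slc8b1, the mitochondrial sodium-calcium exchanger gene, was at 0.57 (0.20 to 0.96) on 141 counts in pTh17 and 102 in npTh17, and Atp2b4, a plasma membrane pump gene, was at −0.19 (−0.25 to −0.13). Of 7 mitochondrial uptake genes, 3 were above 1 and 4 below. Smdt1, a small subunit of the uniporter, was 1.51-fold higher in pTh17, at a log2 ratio of 0.59 (0.47 to 0.72), or 0.21 with the length and GC trend removed, and Micu2, a gatekeeper of the uniporter, was at −0.37 (−0.46 to −0.28). Of 9 measured calmodulin and CaM kinase genes, 6 were above 1, led by the calmodulin gene Calm3 at 0.50 (0.45 to 0.55). Camk2g was at −0.36 (−0.48 to −0.25).

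Calcineurin inhibitors and scaffolds were near even, with 4 of 7 measured genes above 1 and a median of 0.013. None of the 7 was past 1.2-fold, where 40.0% of all measured genes were. The list includes Fkbp1a and Ppia, the binding proteins of the drugs FK506 and cyclosporin, at 0.13 (0.10 to 0.17) and 0.087 (0.069 to 0.10). The 8 kinase genes that can return NFAT to the cytoplasm had a median of 0.052. Gsk3b was at 0.23 (0.15 to 0.32) and Dyrk1b, at 56 counts in pTh17 and 85 in npTh17, was at −0.48 with an interval that reached 0. Other factors that calcineurin controls had a median of −0.038. The outlying gene there was Crtc3, a CREB co-activator gene, at 2156 counts in pTh17 and 4166 in npTh17 and a log2 ratio of −0.84 (−0.91 to −0.76). Foxp3, whose protein partners NFAT in regulatory T cells, was at −1.24 (−1.34 to −1.15), while the NFAT-binding scaffold genes Homer1 and Homer3 were both at −0.15.

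Genes that depend on NFAT in T cells held the highest ratios of all the lists. Of 27, 21 were measured, 15 were above 1 and 6 below, where 49.4% of all measured genes were above, and the median log2 ratio was 0.16, or 0.22 over the 19 that are not among the 10. The list was drawn up with results of these libraries known, so its direction is no independent evidence. Il2, the T cell growth factor gene, had 988 counts (32.0 CPM) in pTh17 and 206 counts (6.16 CPM) in npTh17, at a log2 ratio of 2.37 (2.16 to 2.60). Tnfrsf9, a costimulatory receptor gene, was at 1.56 (1.37 to 1.76), Il21 at 0.93 (0.89 to 0.97) and Nr4a3, a nuclear receptor gene induced through the T cell receptor, at 0.73 (0.66 to 0.80). Of the 21 measured, 5 were at least 1.5-fold apart, all higher in pTh17, where 13.0% of all measured genes were that far apart in either direction. The lowest of the 21 was Il17f at −0.58 (−0.61 to −0.54). The libraries differed 5.16-fold at Il2. Nfatc1 and Rcan1, also on the list, did not differ beyond counting error. Whether NFAT activity differed between the cultures was not tested.

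The osmotic genes that NFAT5 drives in kidney and other cells were not higher as a group. Of 7 measured, 2 were above 1 and 5 below, with a median of −0.090. Slc5a3, the inositol transporter gene, was at 4515 counts in pTh17 and 4047 in npTh17, with a log2 ratio of 0.27 (0.21 to 0.33). The heat shock family gene Hspa4l was at −0.14 (−0.22 to −0.050). Sgk1, a salt-responsive kinase gene also under other controls, was at 1008 counts in pTh17 and 2509 in npTh17, or −1.20 (−1.31 to −1.10).

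**Figure D4:**
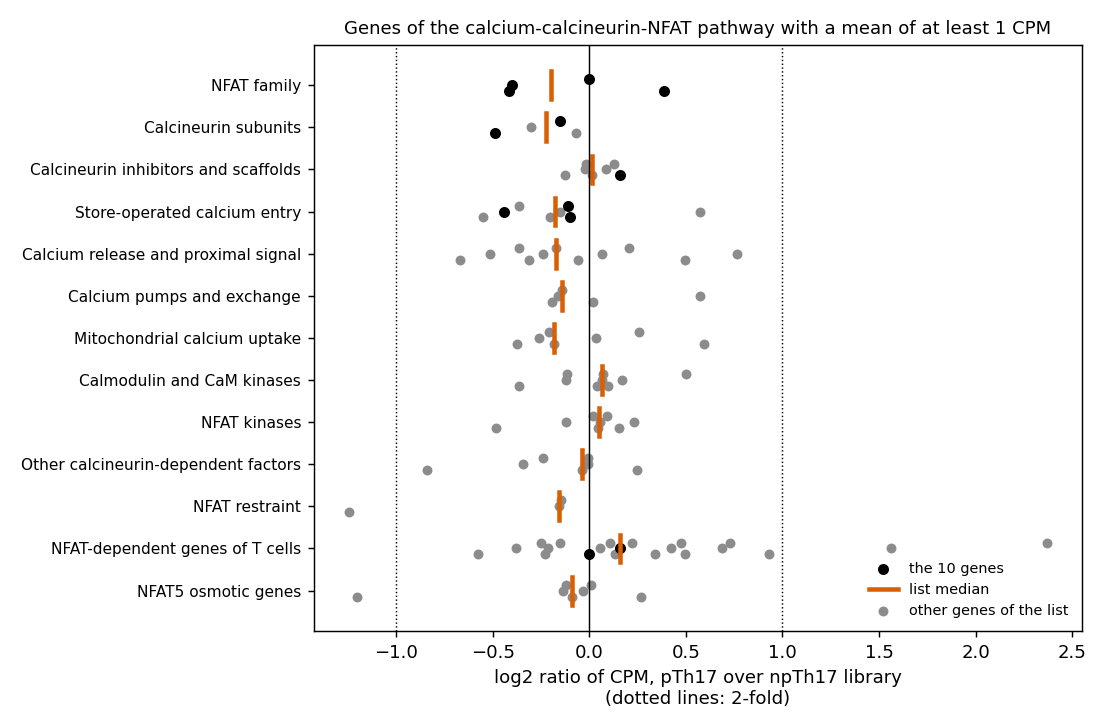
Log2 ratio of CPM, pathogenic over npTh17 library, for each measured gene of the 13 lists; black points are the 10 genes, grey points the others, and orange bars the list medians. Medians lie between −0.22 and 0.16, and the points beyond the 2-fold lines are Il2, Tnfrsf9, Foxp3 and Sgk1.

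Some members have neighbours that could share reads, since the labels describe no strand-marking step. Nfatc3 overlaps Esrp2, on the other strand, over 1.87% of its exon bases, and Esrp2 had 7 counts in pTh17 and 19 in npTh17, far below Nfatc3. Orai1 overlaps the predicted gene Gm2479 over 0.305% of its exon bases. The transcript length implied by the deposited counts and FPKM differed by at most 1.85% between the libraries for the 10 genes.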

How the data were processed

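Polyadenylated RNA was fragmented, copied from random primers and amplified by PCR, per the labels' protocols. The authors deposited counts per gene and FPKM values for the same rows, per the file headers. Per the submitters' processing notes, the genome build was mm10; no aligner, counter or annotation is named in the sources used here. Of 23702 rows, 22036 carry an Ensembl identifier, and 1646 features with no gene name (2.50% of pTh17 and 2.90% of npTh17 counts) and 20 blank or text rows were left out. Positions are from GENCODE M21.

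Library sizes were scaled with edgeR 4.0.16 (TMM, under R 4.3.3). Ratios are log2 CPM ratios with a prior count of 1, and intervals are exact Clopper-Pearson intervals of the binomial share, or exact Poisson intervals for FPKM levels, computed with scipy 1.17.1. Reads amplified by PCR with no molecular identifier can stem from 1 molecule, so intervals and the floor of 3 counts cover counting error only. The calculations were tested on simulated data. With 1 library per condition there was no test. Genes that averaged 1 CPM or more were called measured. Named were all 10 members, 8 paralogs and partners, Il2, and up to 4 genes a list with the largest absolute ratio. Some genes that this rule names are not reported here, but counts and medians include them. Cd4, Cd3d, Cd3e, Cd3g, Lat and Il17f, the named marker genes of other cells and overlapping neighbours were added after values were seen. The members and lists were chosen with earlier results of these data known. Alternatives were DESeq2 1.42.0 size factors, library totals, other prior counts and filters, FPKM with a pseudocount of 0.1, and removal of a polynomial trend on transcript length and GC content.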

Additional observations from a re-analysis of the deposited data

How the results depend on the processing

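Each of the 10 ratios was recomputed under 6 settings (DESeq2 size factors, library totals, no prior count, a prior count of 5, FPKM, and removal of the length and GC trend). All values stayed within the counting interval except 2 after trend removal, Orai1 at −0.26 and Ppp3cb at −0.055. Nfatc1, whose ratio was near 0, changed sign in 3 settings, between −0.0058 and 0.0054, and the others kept their sign in all 6. The 5 genes past 1.2-fold numbered 5 in every setting. With each count halved, in case a fragment added 2 (a setting chosen after seeing the data), 7 of 10 intervals still excluded 1, against 55.0% of measured genes. Of list medians, the NFAT family was −0.40 with no filter, since Nfatc4 then enters with 0 and 2 counts, and calcium release was −0.29 with the trend removed, where the cause was not tested. Genes past 2-fold numbered 445, but 2328 with no filter and 197 above a mean of 5 CPM, and past 1.5-fold 1373, but 3652 and 850, since the filter sets how many scarce genes are counted. No paired analysis was possible because each condition had 1 library, and for the same reason no library could be left out. Depth limits Ppp3ca and Rcan1 most, and variation between cultures was not measured.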
